A study of Drosophila melanogaster with 10 samples.

Results

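The epidermal growth factor receptor (EGFR) pathway of Drosophila melanogaster was followed through 9 genes: the ligand genes spi (spitz) and vn (vein), the ligand-processing gene rho (rhomboid), the receptor gene Egfr, the inhibitor genes aos (argos), kek1 (kekkon 1) and sty (sprouty), and the ETS transcription factor genes pnt (pointed) and aop (anterior open, also called yan). They were taken by name, not by their values, and are 9 of the 15259 genes with a count in the deposited table. Each gene was represented by its transcript row of highest total count, which was spi-RB, vn-RA, rho-RB, Egfr-RB, aos-RA, kek1-RB, sty-RC, pnt-RB and aop-RC. The genes lie on chromosome arms 2L (spi, kek1, aop), 2R (Egfr), 3L (vn, rho, aos, sty) and 3R (pnt), and all 9 passed the filter on low counts in each comparison.

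The study knocked down Rbf, the fly retinoblastoma protein gene, in the muscle lineage and sequenced total RNA of 10 libraries depleted of ribosomal RNA. Animals of every group carried a Mef2-GAL4 driver, which is active in muscle and its precursors, and P{UAS-Dicer2.D}1, and were raised at 25 °C. The groups labelled WT also carried the control hairpin P{UAS-mCherry-RNAi}attP2, so they are hairpin controls and not unmanipulated flies. The groups labelled Rbf-KD carried P{UAS-Rbf-RNAi[GD:10696]} in its place, a transgene from another collection. Notum was cut from wing discs of wandering larvae in the third instar (3 libraries labelled WT and 3 labelled Rbf-KD), and flight muscle came from pharate adults at 96 h after puparium formation (2 and 2). The notum holds disc epithelium beside the muscle precursors in which the driver acts. The labels do not say whether the replicates were separate dissections, so the p-values measure the spread between these libraries.

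In the fly, Spitz is made as a membrane-bound precursor that the intramembrane protease Rhomboid cuts into an active ligand, whereas Vein is secreted directly and is the weaker activator. The activated receptor signals through Ras and the MAP kinase cascade, which switches on the ETS activator Pointed and removes the ETS repressor Aop from their shared target sites. Argos, which binds Spitz outside the cell, Kekkon 1, which binds the receptor, and Sprouty, which acts inside the cell, limit the signal, and the pathway induces several of its own inhibitors. In the wing disc, Vein and Egfr are required to form the notum, and in the embryo muscle-made Vein signals to tendon cells.

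Summed over the counted row of each gene, the notum libraries held 42097050 to 55401980 counts and the flight muscle libraries 53864590 to 73408335. Library totals printed below are these sums, which leave out other transcript rows and rows without a match. In them 3 counts stand for 0.0409 to 0.0713 CPM (counts scaled to 1e+06 per library), a range set by depth alone. In the notum, Rbf itself differed by -0.25 on the log2 scale (SE 0.18, adjusted p = 0.9998) between the groups, and in flight muscle it was higher in the libraries labelled Rbf-KD by 1.48 (SE 0.17, edgeR adjusted p = 0.00229), which goes against that label. Its counts include any reads from the hairpin. In WT flight muscle 76.7 and 76.8% of a library's counts fell in the most abundant 1% of genes, whereas it was 63.6 and 64.2% in flight muscle labelled Rbf-KD and 29.6 to 31.7% in the notum. Because of this gap, the scale matters. The TMM factors of edgeR rest on a trimmed mean over genes, which aims to set the typical gene at no difference. On that scale the median log2 difference over all genes was 0.10 between the flight muscle groups and -0.01 between the notum groups. Between the tissues it was -0.50 (WT) and -0.23 (Rbf-KD), so the typical gene was not at 0 there. Dividing by library totals instead moved that median by 1.11 between the flight muscle groups and by 0.01 between the notum groups. Between the tissues it moved by -2.74 (WT) and -1.67 (Rbf-KD). The 8 flight muscle marker genes summed to 192950 to 205743 CPM of the library total in WT flight muscle, 132125 to 135985 in flight muscle labelled Rbf-KD, and at most 364 in the notum. No marker list had a gene at 0 in every library of a group. In bulk tissue, fewer cells of a type and less RNA per cell cannot be told apart.

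Levels between genes were compared per kilobase of the counted transcript and per 1e+06 gene counts of the library. In WT notum spi had the highest level, 95.9 ± 3.42 (SD, n = 3), followed by Egfr at 85.5 ± 9.73 and kek1 at 50.8 ± 4.76, and the ranges of these 3 genes did not overlap those of their neighbours. With the length of the longest transcript in place of the counted one, spi (91.01 to 97.6 over the libraries) and Egfr (74.2 to 91.3) overlapped. Below them came sty (24.5 ± 1.32), aop (23.6 ± 11.6), vn (18.8 ± 6.41), aos (10.9 ± 1.31) and pnt (10.4 ± 2.33), each of which overlapped its neighbour in this order, and rho was lowest at 5.96 ± 1.37. The order in the notum libraries labelled Rbf-KD was the same except that aop (25.6 ± 5.14) and sty (25.4 ± 2.00), whose ranges overlapped, changed places. In WT flight muscle the order was another: aop was highest at 7.99 ± 1.205 (SD, n = 2), followed by sty at 6.84 ± 0.19, vn at 5.73 ± 1.52 and pnt at 4.80 ± 0.03. The notum's leading genes followed, spi at 2.68 ± 0.01 and Egfr at 1.88 ± 0.25, then rho at 1.60 ± 0.19, aos at 0.63 ± 0.12 and kek1 at 0.33 ± 0.23. Neighbours overlapped there from sty to vn, from vn to pnt and from Egfr to rho. In flight muscle labelled Rbf-KD, sty led at 14.5 ± 1.56 and pnt followed at 8.92 ± 0.96, and aop, first in WT flight muscle, was last at 0.68 ± 0.09. Between them stood vn (4.88 ± 0.62) and Egfr (4.74 ± 0.65), which overlapped, spi (3.76 ± 0.46), rho (2.59 ± 0.60), and aos (1.53 ± 0.59) and kek1 (1.03 ± 0.12), which also overlapped.

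**Figure D1:**
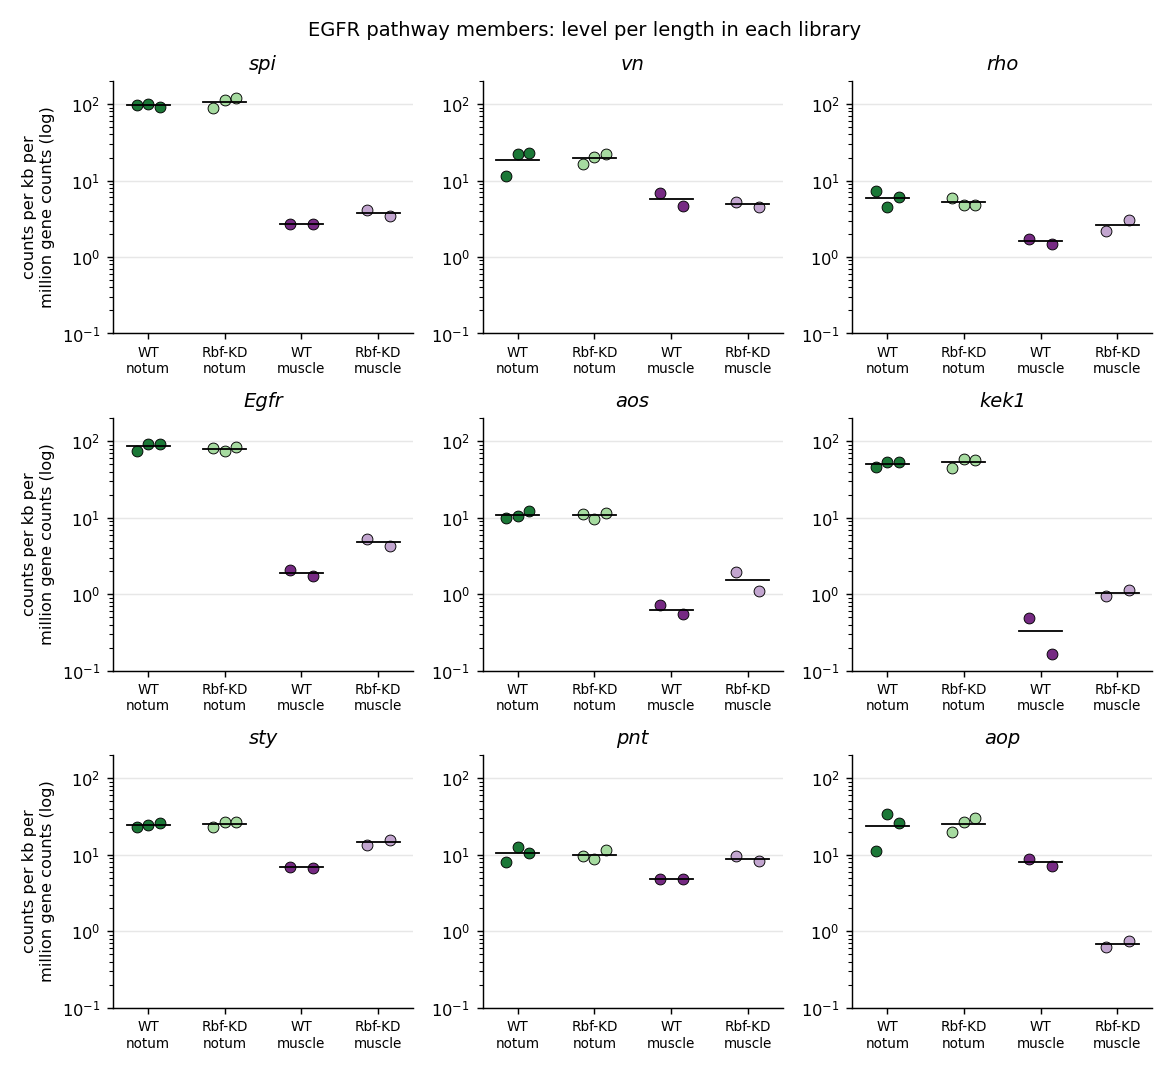
Level of each of the 9 genes in every library, in counts per kilobase of counted transcript per 1e+06 gene counts (log axis, library-total scale), for WT and Rbf-KD notum (3 libraries each) and WT and Rbf-KD flight muscle (2 each). Points are libraries in replicate order and lines are group means; aop drops to a mean of 0.68 in flight muscle labelled Rbf-KD, the lowest of the 9 there, from 7.99 in WT flight muscle, the highest.

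In the notum none of the 9 genes was called different between the groups. In the libraries labelled Rbf-KD 0 of 9 were higher and 0 of 9 lower (edgeR quasi-likelihood test, Benjamini-Hochberg adjusted p under 0.05). An unadjusted p under 0.05 was reached by 0 of 9. Over all 12203 genes tested the share called was 0.156%, with 0.0738% higher and 0.0819% lower, so that a count of 0 is near the background. With replicate number as a block, 38 genes in all were higher and 41 lower, against 9 and 10 without it, and still none of the 9. DESeq2 called 60 and 70 genes, with none of the 9. Scaled by library totals, 0.0656% of all genes were higher and 0.0819% lower, again with 0 of the 9. The median log2 difference of the 9 genes was 0.05, beside -0.01 over all genes tested.

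Of the ligands in the notum, spi had a TMM-scaled level of 156, 168 and 147 CPM in the WT libraries and of 139, 191 and 200 CPM in those labelled Rbf-KD. The groups overlapped, with a log2 difference of 0.17 (SE 0.15). For vn the levels were 57.3, 118 and 113 CPM in WT and 80.4, 107 and 114 CPM under the label Rbf-KD, a log2 difference of 0.06 (SE 0.28). The lowest library of each group was its replicate 1. The gene rho, which supplies the Spitz-cutting protease, stood at 21.5, 14.1 and 17.9 CPM against 17.2, 14.6 and 14.4 CPM, and its difference of -0.21 (SE 0.16) was the most negative of the 9.

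The receptor gene Egfr stood at 449, 581 and 547 CPM in WT notum and at 476, 464 and 519 CPM in notum labelled Rbf-KD. The ranges overlapped, and the log2 difference was -0.11 (SE 0.12). The 3 inhibitor genes differed by -0.03 (SE 0.10) for aos, 0.07 (SE 0.15) for kek1 and 0.05 (SE 0.10) for sty. Their levels lay between 27.4 and 34.1 CPM for aos, 251 and 346 CPM for kek1, and 94.6 and 117 CPM for sty over the 6 libraries.

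Among the ETS factors in the notum, the activator gene pnt stood at 32.2, 53.6 and 42.7 CPM in WT and at 37.6, 37.2 and 48.2 CPM under the label Rbf-KD (log2 difference -0.06, SE 0.20). The repressor gene aop varied most within a group, with 54.4, 175 and 124 CPM in WT and 94.5, 136 and 150 CPM under the label Rbf-KD (log2 difference 0.11, SE 0.40). As for vn, replicate 1 was the lowest library of each group. The SE of aop leaves this comparison less precise than that of any other gene of the 9.

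Flight muscle gave another picture. There aop was 25.2-fold lower in the libraries labelled Rbf-KD, vn was 2.53-fold lower and spi 1.54-fold lower on the TMM scale, and the other 6 genes did not pass the test. The 3 of 9 called lower and 0 of 9 called higher stand beside 20.3% of all 10930 genes tested that were called lower, 19.4% called higher and 39.8% called in either direction. With library totals the split turned: 6 of the 9 (Egfr, aos, kek1, pnt, rho and sty) were called higher and 1, aop, was called lower, beside 68.2% of all genes called higher and 5.07% called lower. The median log2 difference of the 9 was -0.22 on the TMM scale and 0.89 on the library-total scale, beside 0.10 and 1.204 over all genes tested. With 2 libraries a group, an exact permutation test of a single gene cannot give a two-sided p under 0.333, so the tests rest on a spread estimated across genes.

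**Figure D2:**
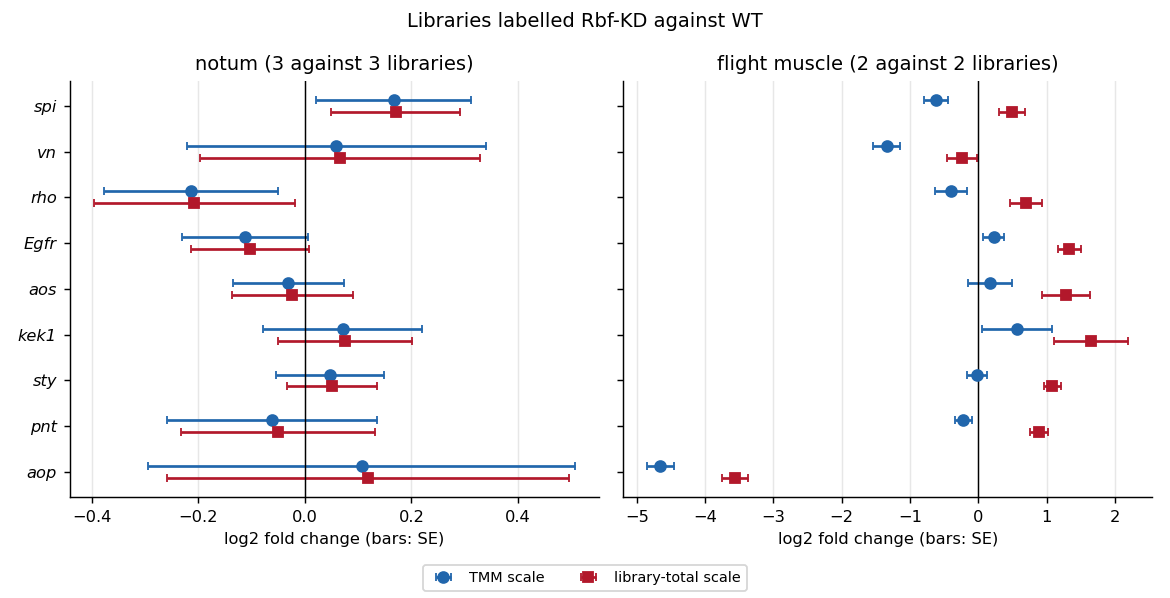
Log2 fold change of each gene in libraries labelled Rbf-KD against WT, in notum (left, 3 against 3 libraries) and flight muscle (right, 2 against 2), with bars of 1 SE; circles are on the TMM scale and squares on the library-total scale. In the notum all 9 lie between -0.21 and 0.17 on the TMM scale, whereas in flight muscle aop lies at -4.66 and -3.55 on the TMM and library-total scales and 5 of the others, pnt, rho, spi, sty and vn, are negative on the TMM scale, of which only vn stays negative on the library-total scale.

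The ligand gene vn had 1989 and 1284 counts in the WT flight muscle libraries, or 49.99 and 35.6 CPM on the TMM scale, and 1461 and 1663 counts, or 17.97 and 15.9 CPM, in those labelled Rbf-KD. Both WT libraries were above both libraries labelled Rbf-KD in CPM, but not in counts. The log2 difference was -1.34 (SE 0.20, edgeR adjusted p = 0.00519) on the TMM scale and -0.23 (SE 0.22, adjusted p = 0.372) on the library-total scale, which ends the call. Leaving out Rbf-KD replicate 1 gave an adjusted p of 0.0543 and leaving out replicate 2 of that group 0.0674, within a range of 6.16e-08 to 0.372 over all alternatives.

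The other ligand gene followed here, spi, had 250 and 237 counts in WT (6.28 and 6.57 CPM). Under the label Rbf-KD it had 359 and 412 counts (4.42 and 3.93 CPM). The groups did not overlap on either measure, and they stood in opposite orders on the 2. The log2 difference was -0.62 (SE 0.17, edgeR adjusted p = 0.0385) on the TMM scale and 0.49 (SE 0.19, adjusted p = 0.0632) on the library-total scale. The call was lost without any 1 of the 4 libraries, with adjusted p between 0.0944 and 0.157. It was also lost in each of the 5 spi transcript rows, with log2 differences from -0.48 to -0.56 and adjusted p from 0.0696 to 0.0951. It was kept in 5 of 18 alternatives, and the range over all of them was 0.0166 to 0.157. For rho, the TMM-scaled levels of 7.47 and 6.57 CPM in WT and 4.32 and 6.33 CPM under the label Rbf-KD differed by -0.40 (SE 0.24, adjusted p = 0.232), which became 0.70 (SE 0.23, adjusted p = 0.0398) on the library-total scale.

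Egfr held 721 and 564 counts (18.1 and 15.6 CPM) in WT flight muscle and 1715 and 1923 counts (21.1 and 18.3 CPM) under the label Rbf-KD. The lower of the Rbf-KD libraries stood just above the higher WT library, and the log2 difference of 0.22 (SE 0.15) did not pass the test (edgeR adjusted p = 0.285). Scaled by library totals it was 1.33 (SE 0.17, adjusted p = 0.00214). The file's second Egfr transcript, Egfr-RA, had 745, 579, 1737 and 1990 counts in the same 4 libraries, more than Egfr-RB in each of them. In all 6 notum libraries Egfr-RA had fewer counts than Egfr-RB, for example 24772 against 25188 in WT replicate 1.

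Among the inhibitor genes in flight muscle, sty was the most abundant, at 43.0 and 43.0 CPM in WT and 38.0 and 46.7 CPM under the label Rbf-KD, a log2 difference of -0.02 (SE 0.14, edgeR adjusted p = 0.914). Scaled by library totals that difference was 1.08 (SE 0.13, adjusted p = 0.0016). The Spitz antagonist gene aos was low, with 115 and 83 counts (2.89 and 2.301 CPM) in WT and 296 and 231 counts (3.64 and 2.203 CPM) under the label Rbf-KD, and its difference of 0.17 (SE 0.32, adjusted p = 0.703) was within the spread. With library totals it was 1.28 (SE 0.36, adjusted p = 0.0235). The receptor antagonist gene kek1 had 161 and 52 counts (4.05 and 1.44 CPM) in the WT libraries and 294 and 474 counts (3.62 and 4.52 CPM) in those labelled Rbf-KD. Its value turned on the WT libraries: the log2 difference was 0.57 (SE 0.51, adjusted p = 0.427) with both, 1.48 (adjusted p = 0.0465) without WT replicate 1 and -0.0048 (adjusted p = 0.99) without WT replicate 2. With library totals the difference was 1.66 (SE 0.54, adjusted p = 0.0443), and the adjusted p ranged from 0.0443 to 0.99 over the alternatives.

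The ETS activator gene pnt had 1124 and 1053 counts (28.3 and 29.2 CPM) in WT flight muscle and 2106 and 2465 counts (25.9 and 23.5 CPM) under the label Rbf-KD. The WT libraries were the higher pair in CPM and the lower pair in counts. The log2 difference was -0.22 (SE 0.12, edgeR adjusted p = 0.204) on the TMM scale, which did not pass the test, and 0.89 (SE 0.13, adjusted p = 0.00302) on the library-total scale.

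The ETS repressor gene aop had 2499 and 1904 counts in WT flight muscle and 164 and 268 in flight muscle labelled Rbf-KD, from library totals of 57271424 and 54055534 against 53864590 and 73408335 counts. In CPM the WT libraries stood at 62.8 and 52.8, a mean of 57.8 ± 7.09 (SD, n = 2), and those labelled Rbf-KD at 2.02 and 2.56, a mean of 2.29 ± 0.38 (SD, n = 2). Both WT libraries were above both libraries labelled Rbf-KD in counts and in CPM. The log2 difference was -4.66 (SE 0.19, edgeR adjusted p = 0.000432), and 13 of the 10930 genes tested had a lower one. It was -3.55 (SE 0.19, adjusted p = 0.00039) on the library-total scale, the least negative value among the alternatives, and -4.82 at the most negative, with adjusted p up to 0.0142.

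All 5 aop rows of the table, aop-RA to aop-RE, were lower in flight muscle labelled Rbf-KD when every transcript row was tested, with log2 differences from -4.39 to -4.53 and adjusted p up to 0.00034. The rows share most of their bases and are not independent: RB and RE lie wholly within the counted row, and RA and RD for 93.1% and 87.6% of their length. Of the counted transcript's bases, 307 (6.22%) lie under an exon of CG15382, a gene on the opposite strand, and the strand setting of the counting is not given in the sources used here. CG15382 was itself lower, with a log2 difference of -4.11 (SE 0.61, edgeR adjusted p = 0.00602), and reads of the pair cannot be told apart where they overlap. The rows aop-RE and aop-RD share no base with CG15382 and differed by -4.49 and -4.40. No counted transcript of the other 8 genes overlapped an exon of another gene.

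Ratios of genes within a library do not depend on the scale. The level of aop relative to pnt, repressor to activator, per kilobase, was 1.40, 2.69 and 2.41 in WT notum and 2.08, 3.02 and 2.57 in notum labelled Rbf-KD. It was 1.84 and 1.49 in WT flight muscle, inside the range of the notum, and 0.0643 and 0.0897 in flight muscle labelled Rbf-KD. Thus aop stood above pnt in 8 libraries and far below it in the 2 labelled Rbf-KD from flight muscle. The ratio of the ligand genes, vn to spi, was 0.117, 0.225 and 0.247 in WT notum and 0.185, 0.179 and 0.182 in notum labelled Rbf-KD. In flight muscle vn was the more abundant of this pair, at 2.55 and 1.74 times spi in WT. Under the label Rbf-KD it stood at 1.30 and 1.29 times spi. Relative to the receptor gene, vn stood at 3.31 and 2.73 in WT flight muscle and at 1.02 and 1.04 in flight muscle labelled Rbf-KD, and spi at 1.30 and 1.57 against 0.785 and 0.803. The WT libraries were above those labelled Rbf-KD in all 3 of these ratios.

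**Figure D3:**
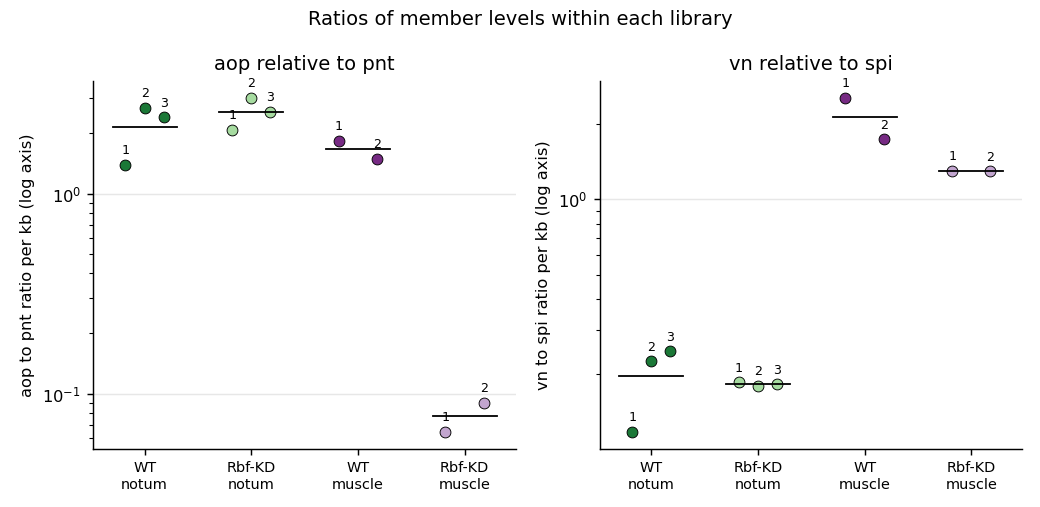
Ratio of aop to pnt (left) and of vn to spi (right) in each library, per kilobase of counted transcript (log axes), with points numbered by replicate and lines at group means. The aop to pnt ratio lies between 1.40 and 3.02 in 8 libraries and at 0.0643 and 0.0897 in flight muscle labelled Rbf-KD; the vn to spi ratio is at most 0.247 in the notum and at least 1.29 in flight muscle.

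The 3 pnt rows share only some of their bases, with 1920 bases of pnt-RB, 651 of pnt-RD and 1388 of pnt-RC found in no other pnt row. Counts per base of pnt-RC were 0.424 to 0.503 of those of pnt-RB in WT notum and 0.417 to 0.459 in notum labelled Rbf-KD. In flight muscle they were 0.549 to 0.558 in WT and 0.564 to 0.579 under the label Rbf-KD, above every notum library. The row pnt-RD moved alike, from 0.596 to 0.674 (WT) and 0.595 to 0.627 (Rbf-KD) in the notum to 0.828 to 0.841 and 0.825 to 0.840 in flight muscle. Reads in shared exons were counted in these rows together, so the values are not shares of transcripts, and no difference between them was tested.

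Markers of other tissues were read in the flight muscle comparison, with calls on the TMM scale unless stated, beside 19.4% of all genes called higher and 20.3% lower. All 6 fat body genes were higher in the libraries labelled Rbf-KD on both scales, with a summed level of 104.6 to 116 CPM of the library total in WT and 3103 to 3132 CPM under the label Rbf-KD. Hemocyte markers summed to 169 to 171 and 685 to 686 CPM (2 of 6 higher, 0 lower), and tracheal markers to 153 to 177 and 142 to 145 CPM (0 of 7 higher, 5 lower). The 8 flight muscle markers were all lower on the TMM scale. Tendon markers summed to 948 to 1070 and 1837 to 2052 CPM (1 of 6 higher, 3 lower), disc epithelium to 134 to 154 and 236 to 281 CPM (1 of 9 higher, 1 lower) and muscle precursors to 91.0 to 98.7 and 184 to 195 CPM (2 of 6 tested higher, 1 lower). Neuronal markers summed to 25.6 to 31.9 and 67.5 to 104.6 CPM (0 of 4 either way) and glial markers to 182 to 216 and 193 to 268 CPM (0 of 4 higher, 1 lower). With library totals, where 68.2% of all genes were called higher and 5.07% lower, the calls differed: higher were 6 of 6 hemocyte, 6 of 9 disc epithelium, 5 of 6 tendon, 5 of 6 muscle precursor, 4 of 4 neuronal and 2 of 4 glial markers, with 0 lower in each of these lists. Of the tracheal markers 0 of 7 were then higher and 1 lower, and of the flight muscle markers 1 of 8 was higher and 5 were lower. The part of these shifts in the differences of aop, vn and spi was not tested. The tendon list was sr, slow, Tsp, if, mys and shot, and the tracheal list trh, uif, btl, bnl, knk, verm and serp. Whether each gene is confined to the cell type of its list was not tested, so the sums do not measure tendon or tracheal content.

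The comparison of tissues set flight muscle at 96 h after puparium formation against notum of wandering larvae, so tissue and stage cannot be told apart. On the TMM scale, 5 of the 9 genes were higher in WT flight muscle (pnt, aop, vn, sty and rho) and 4 were lower (kek1, Egfr, spi and aos). Over all 13407 genes tested, 33.3% were called higher, 43.4% lower and 76.8% in either direction. With library totals 0 of the 9 were higher and all 9 were lower, beside 10.9% and 76.3% of all genes, so the direction of pnt, aop, vn, sty and rho turned with the scale and that of kek1, Egfr, spi and aos did not. The median log2 difference of the 9 was 0.86 on the TMM scale, beside -0.50 over all genes, and -1.90 on the library-total scale, beside -3.24.

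The largest difference between the WT tissues was that of kek1, with TMM-scaled levels in the fit of all 10 libraries of 134, 175 and 165 CPM in the notum and 10.2 and 3.48 CPM in flight muscle. It was 23.1-fold lower in flight muscle, a log2 difference of -4.53 (SE 0.43, edgeR adjusted p = 1.25e-05). Egfr, at 233, 315 and 297 CPM against 45.5 and 37.7 CPM, was 6.77-fold lower (log2 -2.76, SE 0.17, adjusted p = 5.59e-07). Its ligand gene spi, at 81.0, 91.2 and 80.1 CPM against 15.8 and 15.9 CPM, was 5.32-fold lower (log2 -2.41, SE 0.18, adjusted p = 2.37e-06). The inhibitor gene aos was 2.58-fold lower (log2 -1.37, SE 0.23, adjusted p = 0.000545). With library totals the log2 differences were -7.28 (SE 0.44) for kek1, -5.51 (SE 0.18) for Egfr, -5.16 (SE 0.18) for spi and -4.12 (SE 0.27) for aos. The notum and flight muscle libraries of these 4 genes did not overlap.

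In the other direction on the TMM scale, pnt stood at 16.7, 29.1 and 23.2 CPM in WT notum and at 70.9 and 70.4 CPM in WT flight muscle, 3.08-fold higher (log2 1.62, SE 0.21, edgeR adjusted p = 0.000109), where the library-total scale gave a log2 difference of -1.12. The ligand gene vn stood at 29.7, 64.1 and 61.7 CPM against 125 and 85.9 CPM (log2 1.03, SE 0.32, adjusted p = 0.0167), and the library-total scale gave -1.71. Its call was lost without WT flight muscle replicate 1, with a log2 difference of 0.69 and an adjusted p of 0.159, and in both transcript rows, vn-RA (0.68, adjusted p = 0.051) and vn-RC (0.64, adjusted p = 0.0699). It was kept in 11 of 15 alternatives (adjusted p 0.000396 to 0.159). For aop the levels were 28.2, 94.9 and 67.7 CPM against 158 and 127 CPM (log2 1.16, SE 0.43, adjusted p = 0.0326), and the library-total scale gave -1.56. The adjusted p of aop was 0.157 without WT flight muscle replicate 1 and 0.0673 without replicate 2, within a range of 0.00214 to 0.157 over the alternatives. The 5 aop rows also lost the call, with log2 differences from 0.82 to 0.92 and adjusted p from 0.0581 to 0.0924, and it was kept in 9 of 18 alternatives. The feedback gene sty differed by 0.91 (SE 0.14, adjusted p = 0.000329) and rho by 0.86 (SE 0.21, adjusted p = 0.00453), against -1.84 and -1.90 on the library-total scale. The call of rho was lost in both of its rows, rho-RB (0.48, adjusted p = 0.0898) and rho-RA (0.51, adjusted p = 0.0693), and kept in 12 of 15 alternatives. Thus the receptor gene and the ligand gene spi were lower in flight muscle on both scales, and the direction of the ETS genes, vn, rho and sty was set by the scale.

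The same comparison among libraries labelled Rbf-KD shares no library with that of the WT groups. Both came from the joint fit of all 10 libraries, so they share its filter, scaling and estimate of spread and are not independent. Of the 9 genes, 3 were higher in flight muscle on the TMM scale (pnt, rho and sty) and 5 lower (Egfr, spi, aos, kek1 and aop), beside 34.9% of all genes higher, 39.2% lower and 74.1% in either direction. On the library-total scale 0 were higher and 8 lower, beside 16.1% and 68.5% of all genes, with pnt at -0.18 (adjusted p = 0.399) the remaining gene. The repressor gene aop was 11.8-fold lower in flight muscle, at 50.6, 75.4 and 83.01 CPM in the notum and 5.11 and 6.63 CPM in flight muscle (log2 -3.56, SE 0.51, edgeR adjusted p = 0.000233). For vn the difference was -0.34 (SE 0.33, adjusted p = 0.364), with 43.0, 59.2 and 62.8 CPM against 45.6 and 41.1 CPM, and the groups overlapped. The other log2 differences on the TMM scale were -4.02 (SE 0.41) for kek1, -3.18 (SE 0.19) for spi, -2.40 (SE 0.17) for Egfr, -1.15 (SE 0.22) for aos, 0.70 (SE 0.21) for rho, 0.87 (SE 0.14) for sty and 1.49 (SE 0.21) for pnt. The call of rho was lost without Rbf-KD flight muscle replicate 2 (log2 0.36, adjusted p = 0.176) and in rows rho-RB (0.45, adjusted p = 0.111) and rho-RA (0.46, adjusted p = 0.0922). It was kept in 9 of 15 alternatives, and its adjusted p ranged from 0.00303 to 0.176 over the alternatives.

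**Figure D4:**
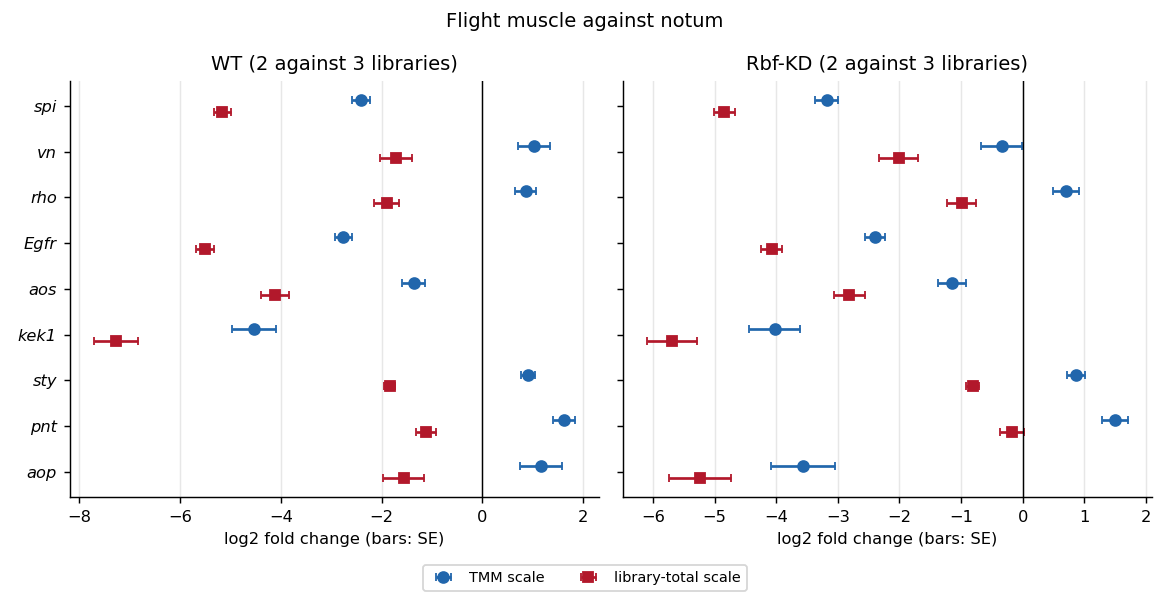
Log2 fold change of each gene in flight muscle against notum, for WT (left) and Rbf-KD (right) libraries (2 against 3 in each), with bars of 1 SE; circles are on the TMM scale and squares on the library-total scale. The genes kek1, spi, Egfr and aos lie below 0 in both panels on both scales, whereas aop moves from 1.16 in WT to -3.56 in Rbf-KD libraries on the TMM scale.

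Whether the groups differed by more in flight muscle than in notum was tested as the difference of the 2 differences, over all 10 libraries. It was -4.73 (SE 0.65, edgeR adjusted p = 0.000763) for aop and -0.77 (SE 0.24, adjusted p = 0.037) for spi, and these were the 2 of 9 called lower, with 0 of 9 called higher. Over all genes, 17.2% were called higher, 13.1% lower and 30.3% in either direction. These are 2310 genes higher and 1759 lower, and DESeq2's size factors gave 1901 and 2256. For vn the value was -1.37 (SE 0.46, adjusted p = 0.0542), and with replicate number as a block it was -1.41 (adjusted p = 0.00343), within a range of 0.00301 to 0.583 over the alternatives. On the library-total scale aop stayed lower (-3.67, SE 0.57, adjusted p = 0.000584), spi, whose call was kept in 14 of 23 alternatives, turned to 0.32 (SE 0.20, adjusted p = 0.21), and 6 of the 9 were called higher and 1 lower, beside 52.1% and 2.72% of all genes. Those 6 were Egfr (1.44), kek1 (1.58), aos (1.30), sty (1.03), pnt (0.94) and rho (0.91), and their values on the TMM scale were 0.36, 0.51, 0.22, -0.04, -0.13 and -0.16, none of which passed the test.

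The rest of the pathway was read from lists that include the 9 genes. In the notum comparison no gene of any list was called. In flight muscle labelled Rbf-KD against WT, the counts that follow are on the TMM scale, where 19.4% of all genes were called higher and 20.3% lower. The list of ligand and processing genes had 2 of 8 tested genes lower (vn and spi) and 0 higher, with a median log2 difference of -0.20. Of the genes from the receptor to MAP kinase, 4 of 15 were lower and 0 higher (median -0.28): csw, the SHP2-type phosphatase, by -0.88, PTP-ER, a phosphatase acting on MAP kinase, by -0.67, Rap1, a small GTPase, by -0.52, and cnk, a Ras pathway scaffold named here after its value was seen, by -0.42. Of the inhibitor and feedback genes, 3 of 11 were lower and 0 higher (median -0.02): Ptp10D, a receptor phosphatase, by -1.18, Cbl, a ubiquitin ligase of the receptor, by -0.68, and kek5, a relative of kek1, by -0.65. Of the ETS family, 3 of 9 were lower and 0 higher (median -0.28): aop, Eip74EF, an ecdysone-induced factor, by -1.24, and Ets97D, the GABP-alpha relative, by -0.66. Scaled by library totals, Eip74EF (-0.14) and Ptp10D (-0.08) stayed below 0 without passing the test, and csw (0.23), Cbl (0.44), PTP-ER (0.44), Ets97D (0.45), kek5 (0.46), Rap1 (0.60) and cnk (0.69) turned positive. The counts with library totals were 6 of 8 higher and 0 lower for the ligand list, 12 of 15 and 0 from the receptor to MAP kinase, 10 of 11 and 0 for the inhibitors, and 3 of 9 higher and 1 lower for the ETS family, beside 68.2% and 5.07% of all genes. Of 7 genes patterned beside or by EGFR in the notum, 0 were called on the TMM scale and 5 were higher with library totals.

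Between the WT tissues the ligand and processing list had 3 of 9 genes higher and 4 lower on the TMM scale, among them grk, the gene of the germline ligand Gurken, at 2.93 (SE 0.19, edgeR adjusted p = 7.8e-07), which stood at 0.18 (adjusted p = 0.296) on the library-total scale, where the other 8 genes of the list were lower. The Rhomboid-family genes rho-4 and stet, at -2.66 and -2.57, and Star (S), at -0.95, which carries Spitz to the protease, were lower on both scales. From the receptor to MAP kinase 3 of 15 were higher (csw at 2.32, PTP-ER at 1.84, drk at 0.95, all negative on the library-total scale) and 6 lower, with the RasGAP gene vap at -3.54, dos at -1.89 and Ras85D at -1.83. Of the inhibitor and feedback genes 3 of 11 were higher and 8 lower, and of the ETS family 4 of 9 were higher and 3 lower, with Eip74EF at 3.84 on the TMM scale and 1.11 on the library-total scale. The notum genes ara, ap and pnr were lower in flight muscle, at -6.13, -5.46 and -3.63, with 6 of 7 of their list lower and 0 higher. These counts stand beside 33.3% of all genes higher and 43.4% lower on the TMM scale. With library totals no gene was higher in the ligand, receptor to MAP kinase, inhibitor and notum lists, and 8 of 9, 15 of 15, 11 of 11 and 7 of 7 were lower; of the ETS family 1 of 9 was higher and 8 were lower, beside 10.9% and 76.3% of all genes.

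Genes whose profile over the 10 libraries was nearest to a given gene were ranked by the distance between log2 CPM values centred on their means, over 13406 other genes. Nearest to Egfr were nompA (0.368), jub (0.391) and CG14965 (0.397). Nearest to pnt were Myo31DF (0.349), Rab14 (0.393) and Kap-alpha1 (0.408). Of the 8 other genes of the pathway, the nearest to Egfr was spi at a distance of 1.08, rank 348. The nearest to pnt was sty at 1.24, rank 735. The rank of the nearest other gene of the pathway was 120 for spi, 283 for aop, 361 for rho and 688 for sty. It was 1310 for vn, 1361 for kek1 and 3511 for aos. Whether these ranks are nearer than those of genes drawn at random was not tested. The profile of aop stood apart, with its nearest gene of all at 1.65 and the nearest of the 8 others, vn, at 4.11. All profiles share the same 10 libraries and their tissue difference, and the distances carry no test.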

How the data were processed

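The deposited table holds raw counts per transcript in 10 libraries, made by the authors. Per the submitters' processing notes, the build was BDGP5 and the tools included TopHat2 2.1.1 with Bowtie2 2.3.2, featureCounts of Subread, bcl2fastq 2.17.1.14 and DESeq2 1.14.1. Which annotation was counted, whether strand was used, and how reads common to several transcripts were handled are not given in the sources used here. Reads of shared bases were kept in the counts. All bases of aop-RB lie in other aop rows, and it had 7056 counts in WT notum replicate 2, beside 7068 for aop-RC. Of 29173 rows, 27011 (92.59%) matched a gene of a later annotation (BDGP6), from which names, transcript lengths and overlaps were taken, and no coordinates are printed. Rows without a match held 9.862 to 20.336% of a library's counts and were left out of totals and tests.

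Counts of the transcript of highest total per gene were tested with edgeR 4.0.16 in R 4.3.3: TMM factors, filterByExpr (minimum count 10, minimum total 15), robust quasi-likelihood F test and Benjamini-Hochberg adjustment over all genes, with a threshold of 0.05. Each genotype comparison was fitted within its tissue, and the tissue and difference-of-differences comparisons over all 10 libraries, so CPM values of a tissue's own fit and of the joint fit differ in scale. SE is the absolute log2 fold change over the square root of F. In the notum, same-numbered WT and Rbf-KD libraries deviated together (correlations 0.698, 0.615 and 0.225 over genes). So did WT replicate 2 with Rbf-KD replicate 3 (0.532) and WT replicate 3 with Rbf-KD replicate 2 (0.169). These values set replicate 1 apart and do not show how replicates 2 and 3 pair. In flight muscle the correlation was -0.217 for same-numbered libraries and 0.217 for crossed ones. With 2 libraries a group these are mirror values and do not show whether or how the libraries pair. Alternatives were DESeq2 1.42.0 (test and size factors), library-total scaling, limma 3.58.1 (voom, with and without sample weights), no filter, sums over transcripts, single transcript rows, a replicate block, other sets of libraries in the fit, and leaving out each library. The scripts were tested on simulated counts.

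The genes, lists and tests were chosen with earlier results of these data known. Genes named from each list, apart from cnk, are among the 3 called genes of smallest adjusted p in a direction, and not all such genes are named. The lists are not described for the comparison of tissues labelled Rbf-KD. Also named are the 3 genes nearest in profile to Egfr and pnt. Of 17 listed cascade genes, 15 were matched. No sequences are shown.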

Additional observations from a re-analysis of the deposited data

Results flagged for a closer look

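In 7 genes the difference between the groups labelled Rbf-KD and WT was not the same in flight muscle as in notum, by the test of the difference itself over all 10 libraries (edgeR, adjusted over all genes). Of the 9 pathway genes these were aop at -4.73 (adjusted p = 0.000763) and spi at -0.77 (adjusted p = 0.037) on the log2 scale. On the library-total scale aop stood at -3.67 and spi at 0.32, so the direction of spi turned.

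The other 5 came from the pathway lists. With the 9 genes included, the test called 1 of 9 ligand and processing genes, 0 of 15 from the receptor to MAP kinase, 3 of 11 inhibitors, 2 of 9 ETS genes and 1 of 7 notum genes, beside 30.3% of all 13407 genes. The ETS gene Ets97D stood at -0.62 (adjusted p = 0.00624), the receptor phosphatase gene Ptp10D at -1.13 (adjusted p = 0.0264) and Mkp3, which encodes a MAP kinase phosphatase, at -0.48 (adjusted p = 0.0404). On the library-total scale they stood at 0.46, -0.07 and 0.61. Higher on both scales were 2 genes: kek2, a relative of kek1, at 1.97 (adjusted p = 0.0386) and 3.03, and ara, a homeobox gene of the notum, at 2.67 (adjusted p = 0.0477) and 3.77. Both were low in flight muscle, with group means in the joint fit of 1.10 (WT) and 2.84 CPM (Rbf-KD) for kek2 and of 1.34 and 8.76 CPM for ara.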

How the results depend on the processing

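The fall of aop in flight muscle, and its difference from the notum effect, held in every alternative run. Library-total scaling changed most else. In flight muscle it gave 6 genes higher and 1 lower, with spi at 0.49, rho at 0.70, sty at 1.08 and pnt at 0.89. Between WT tissues it gave 0 higher and 9 lower, with vn at -1.71, rho at -1.90, sty at -1.84, pnt at -1.12 and aop at -1.56, and between Rbf-KD tissues 0 and 8, with rho at -0.99, sty at -0.81 and pnt at -0.18. In the difference of differences it gave 6 higher and 1 lower, with spi at 0.32, rho at 0.91, sty at 1.03 and pnt at 0.94, and limma-voom gave 1 lower.

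Small values turned sign elsewhere, and the cause was not tested. Notum values without both replicate 1 libraries were -0.046 for vn and -0.039 for aop, aos was 8.2e-05 in the joint fit, and sty -0.017 by row sty-RB. In flight muscle sty was 0.0056 without a filter, 0.039 in the joint fit, and 0.11 and 0.12 by rows sty-RC and sty-RB. In the difference of differences sty was 0.0085 summed over transcripts and 0.077 and 0.16 by those rows, and pnt was 0.036 and 0.13 by rows pnt-RD and pnt-RC.

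Leaving out each library in turn gave, in flight muscle, 0 to 1 genes higher and 1 to 2 lower, 3 to 5 higher between WT tissues, and 0 to 1 higher and 1 to 3 lower in the difference of differences. A lone library left in a group was assumed to vary like the others. Notum values ranged from -0.19 to 0.0062 for Egfr, -0.18 to 0.27 for vn, -0.092 to 0.052 for aos, -0.21 to 0.17 for pnt and -0.21 to 0.54 for aop. Flight muscle values ranged from -0.21 to 0.50 for aos, -0.0048 to 1.48 for kek1 and -0.16 to 0.15 for sty. Differences of differences ranged from -0.47 to 0.11 for rho, -0.16 to 0.54 for aos, -0.064 to 1.499 for kek1 and -0.21 to 0.12 for sty.

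Over all genes, calls in the notum were 21 higher and 19 lower without both replicate 1 libraries, and 0 to 10 in a direction without any 1 library. In flight muscle they were 1111 to 1303 higher and 1285 to 1742 lower without any 1 library, against 2125 and 2223. Library-total scaling gave 7449 and 554 there, 1464 and 10235 between WT tissues, 2153 and 9190 between Rbf-KD tissues and 6989 and 365 in the difference of differences. DESeq2's test called 2651 lower in the last, against 1759. In flight muscle the replicate block kept aop and vn and left spi at -0.63 (adjusted p = 0.0804). Whether its numbers pair the libraries is not known (correlation -0.217). Crossed pairing called 2075 genes higher and 2102 lower in all. The block changed no other call except that of vn given above. Depth limits kek1 and aos most, with 52 and 83 counts in a WT flight muscle library.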
